A study of Mus musculus with 4 samples.

Results

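The BCL2 family decides whether a cell keeps its mitochondria intact or dies by the intrinsic pathway of apoptosis. Of 32245 gene symbols in the count matrices, 10 of the family were followed here in mouse immune cells: the guardians Bcl2, Bcl2l1, Mcl1, Bcl2a1b and Bcl2a1d, the BH3-only genes Bcl2l11, Bbc3, Pmaip1 and Bid, and the effector Bax. They were chosen by name, as one gene family, and their unique molecular identifiers (UMIs) were summed per mouse and per cell class. The guardians bind and hold the death proteins, the BH3-only proteins occupy the guardians when a cell lacks growth factors or is damaged, and BAX then opens the outer mitochondrial membrane so that cytochrome c leaves and activates caspases. In lymphocytes the balance between BCL2 and BIM, the product of Bcl2l11, is known to set how long resting cells live, and interleukin-7 is known to hold BCL2 up in resting T cells, while MCL1 is needed by many blood cells and the Bcl2a1 genes are NF-κB targets of myeloid cells and activated lymphocytes.

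The cells came from B6 mice, all of which carried BeCon tumours, an ovarian cancer model per the series title. The mice had received YKL-05-099, which inhibits salt-inducible kinases, or only the vehicle; the dose, the length of treatment, and the age and sex of the mice are not given in the sources used here, and no tumour-free mice were among the groups. By the study's sort the cells were viable, CD45+ and MHCI+. Each mouse and tissue was marked with its own hashtag antibody, and the cells were pooled for 2 droplet runs. Ascites was from 4 vehicle mice (1 to 4) and 4 treated mice (1 to 4), and spleen and blood, in the other library, were from 3 vehicle mice (1 to 3) and 3 treated mice (2 to 4). Ascites and the other tissues were therefore in different libraries, and a level set between them cannot be told apart from a difference between libraries.

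Genes were placed on GRCm38, with Bcl2 at chr1:106538178-106714274 on the minus strand, Bcl2l11 at chr2:128126038-128162547 on the plus strand, Mcl1 at chr3:95658788-95663176 on the plus strand, and the Bcl2a1 copies on chromosome 9, Bcl2a1b at chr9:89199209-89207827 on the plus strand and Bcl2a1d at chr9:88723285-88731914 on the minus strand. The promoters of Bcl2 and Bcl2l11, the pair followed in T cells, and of the near-identical Bcl2a1 copies are printed because salt-inducible kinases are known to hold back the CREB coactivators and class IIa histone deacetylases, and because FOXO factors are known to act on Bcl2l11. Each runs from 250 bases before to 50 after a RefSeq start on GRCm38.p6, 5′ to 3′, and capitals mark TGACG, the shorter form of the CREB element, or GTAAACA, a FOXO-type motif, on either strand. Promoter 2 of Bcl2l11 held neither of these motifs and is not printed.
Bcl2 (chr1:106714241-106714540, minus strand): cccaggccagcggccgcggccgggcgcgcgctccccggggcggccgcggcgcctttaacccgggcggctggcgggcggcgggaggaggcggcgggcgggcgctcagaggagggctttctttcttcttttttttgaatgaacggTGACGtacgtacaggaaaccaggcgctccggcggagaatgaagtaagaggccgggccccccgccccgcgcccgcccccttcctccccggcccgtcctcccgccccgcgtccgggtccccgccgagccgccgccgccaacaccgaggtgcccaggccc
Bcl2l11, promoter 1 (chr2:128125788-128126087, plus strand): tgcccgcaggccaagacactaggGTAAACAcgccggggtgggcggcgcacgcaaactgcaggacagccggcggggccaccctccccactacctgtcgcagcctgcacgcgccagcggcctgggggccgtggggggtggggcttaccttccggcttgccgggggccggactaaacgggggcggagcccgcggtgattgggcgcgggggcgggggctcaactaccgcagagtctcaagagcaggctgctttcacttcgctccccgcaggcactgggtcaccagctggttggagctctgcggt
Bcl2a1b (chr9:89199023-89199322, plus strand): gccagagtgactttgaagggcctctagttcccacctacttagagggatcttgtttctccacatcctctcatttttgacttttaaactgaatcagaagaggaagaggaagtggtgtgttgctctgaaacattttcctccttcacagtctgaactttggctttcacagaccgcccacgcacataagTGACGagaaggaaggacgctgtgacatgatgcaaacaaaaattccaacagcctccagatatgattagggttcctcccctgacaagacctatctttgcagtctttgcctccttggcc
Bcl2a1d (chr9:88731801-88732100, minus strand): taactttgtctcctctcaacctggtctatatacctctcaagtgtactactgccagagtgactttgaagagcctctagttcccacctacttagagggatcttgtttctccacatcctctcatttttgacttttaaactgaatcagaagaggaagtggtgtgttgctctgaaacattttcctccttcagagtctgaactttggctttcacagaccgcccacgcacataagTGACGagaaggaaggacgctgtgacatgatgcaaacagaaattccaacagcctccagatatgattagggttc
The table held 14 promoters for 9 of the 10 members. The full element TGACGTCA was in none of them, against 1.79% of all 32851 promoters of the same length. TGACG, which the full element contains, was in 5 of the 14 promoters, against 20.8% of all promoters, each of another member, at 107 bases before the start in Bcl2, 66 in Bcl2a1b, 22 in Bcl2a1d and 55 in promoter 1 of Bbc3, and 16 after the start in Mcl1. GTAAACA was in 2 of the 14, promoter 1 of Bcl2l11 (227 bases before the start) and promoter 2 of Bbc3 (167 bases before), against 3.65% of all promoters. These are matches of letters in these windows only. The promoters of Bcl2a1b and Bcl2a1d were 98.8% identical over 250 aligned bases, and the last 500 bases of their transcripts, where this chemistry reads, were 99.4% identical over 498 aligned bases. Reads of these copies, and of the further copy Bcl2a1a, may have been lost or shared between them, so counts of either Bcl2a1 gene are uncertain throughout.

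Of 13688 ascites and 14792 spleen and blood barcodes, 6419 and 6741 passed the filters and carried 1 dominant hashtag, with medians of 8310 and 5987 UMIs. The libraries shared 52 barcodes. Cells were put into classes by marker genes, and levels are in CPM, a gene's count per 1000000 UMIs of a mouse's cells in a class. Arms were compared in classes with 2 or more mice of 20 or more cells on each side, which gave 16 comparisons: 8 in ascites, 4 in spleen and 4 in blood. Changes are log2 differences of treated minus vehicle mice ± SE from edgeR's two-sided quasi-likelihood test with Benjamini-Hochberg adjustment over all genes of the comparison, and every adjusted p for a change between arms is from that test. The summed T cell panel stood at 1849.9 to 2000.03 CPM in vehicle and 1793 to 1966 in treated mice of ascites T cells. In ascites B cells the B cell panel was lower in every treated mouse, 3799 to 4408 CPM in vehicle and 3511 to 3719 in treated mice. The macrophage panel fell in its own class, 10228 to 11539 CPM in vehicle and 7486 to 8474 in treated mice, with 5 of 7 genes lower, and the cDC1 panel likewise, 891 to 1000.2 CPM in vehicle and 553 to 658 in treated mice, with 4 of 5 lower. The part of these shifts in the results for those classes was not tested. Separate mice were the replicates.

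In vehicle mice the members were highest in different classes. Bcl2 was highest in T cells. They had 801 ± 286 CPM in ascites (SD, n = 4), 439 ± 48.3 in spleen and 299 ± 65.9 in blood (n = 3 each). Single mice spanned 385 to 477 CPM in spleen and 257 to 375 in blood, which did not overlap, and 410.3 to 1046 in ascites, which overlapped with spleen. NK cells had 245 ± 7.90 CPM in ascites (n = 2) and 208 ± 77.6 in blood. Non-classical monocytes of blood, a myeloid class, had 171 ± 53.3 CPM (n = 3). B cells of ascites, blood and spleen had 156 ± 25.7, 136 ± 21.5 and 127 ± 7.01 CPM. From ascites NK cells to spleen B cells, ranges over mice overlapped between neighbours in this order. The ascites myeloid classes were lower, with cDC2 at 40.4 ± 10.4 CPM, macrophages at 13.3 ± 3.57, neutrophils at 8.63 ± 12.2 and cDC1, the cross-presenting dendritic cells, at 7.07 ± 2.77 CPM. The neutrophil value rests on 3 UMIs over 4 mice, with a lowest level of 0, so its place in this order is uncertain. In migratory dendritic cells of 3 mice no Bcl2 UMI was counted among 922952, which allows a level of up to 3.25 CPM, for counting error only.

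**Figure D1:**
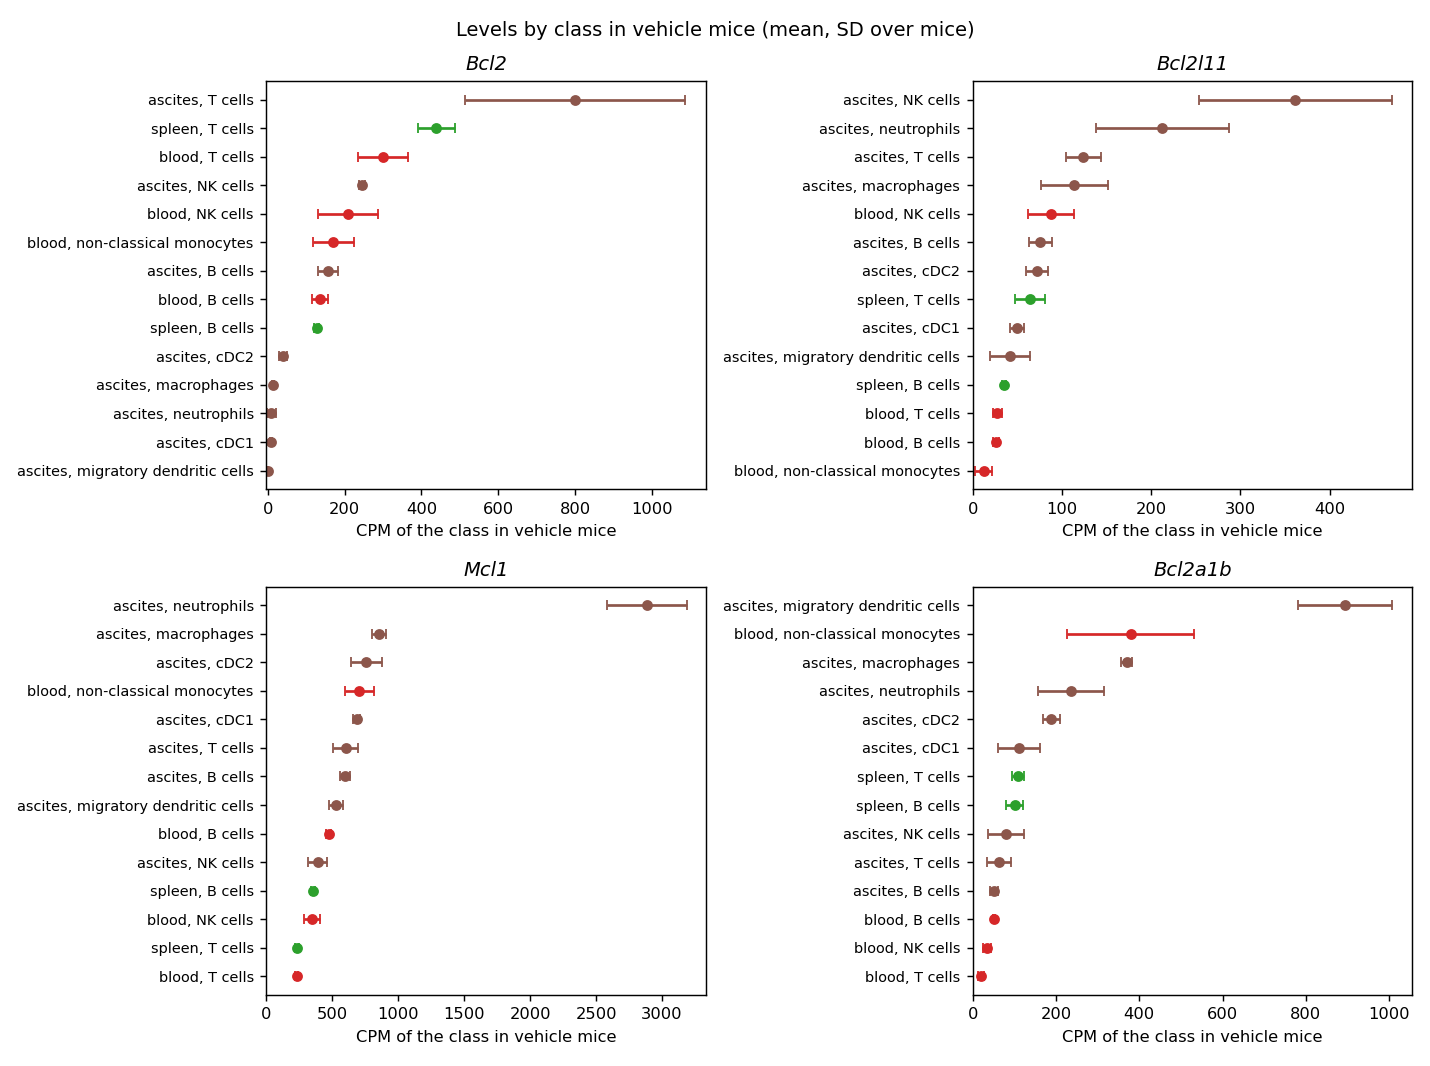
Levels of Bcl2, Bcl2l11, Mcl1 and Bcl2a1b in CPM (horizontal axes) in each class of vehicle mice other than the CD4 and CD8 subsets of T cells (vertical axes, coloured by tissue); points are means over mice and bars are SD. Bcl2 was highest in ascites T cells (801 ± 286 CPM), Mcl1 in neutrophils (2886 ± 301) and Bcl2a1b in migratory dendritic cells (893 ± 113).

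Bcl2l11, whose product BIM binds all the guardians, was ordered by tissue within lymphocytes. In T cells its vehicle levels were 102 to 148 CPM in ascites, 52.2 to 83.3 in spleen and 22.7 to 32.5 in blood. In B cells they were 64.8 to 92.8, 33.6 to 37.6 and 22.2 to 28.7 CPM in the same order, and in neither class did the tissues' ranges overlap. The highest means were in ascites NK cells, 361 ± 108 CPM in 2 mice, and neutrophils, 212 ± 74.3 CPM in 4 mice, whose ranges overlapped.

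Mcl1, the short-lived guardian, was highest in neutrophils, 2886 ± 301 CPM, followed by macrophages with 853 ± 53.5 and cDC2 with 759 ± 115, which overlapped. T cells of spleen and blood had 231 ± 12.7 and 230.1 ± 12.2 CPM. Bcl2a1b and Bcl2a1d led in migratory dendritic cells, with 893 ± 113 and 409 ± 123 CPM, and so did Pmaip1, which encodes NOXA, a BH3-only partner chiefly of MCL1, with 365 ± 12.6. Bcl2l1, which encodes BCL-XL, was highest in neutrophils (102 ± 17.4 CPM) and macrophages (43.3 ± 10.3). Bid, whose protein is cut by caspase-8 to link death receptors to mitochondria, was highest in spleen B cells (47.9 ± 10.2 CPM). Bax was more even, from 46.4 to 149 CPM over the class means.

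With YKL-05-099 the direction of change differed by member and by class. Bcl2 fell in spleen T cells and in ascites B cells, Bcl2l11 rose in ascites B cells, and Mcl1 fell in 3 myeloid classes of ascites, in which Bcl2a1d rose. Over the 16 comparisons, 109 member tests were possible, and 19 passed the adjusted threshold of 0.05, 10 higher and 9 lower. The CD4 and CD8 classes are subsets of the T cell class in the same mice, so the Bcl2 fall in spleen was counted in both T and CD8 T cells. Macrophages held 6 of the 10 members called, 4 higher and 2 lower, where 21.6% of all genes tested were called, 10.5% higher and 11.1% lower. The other ascites classes with calls were cDC1 (3 of 8 tested, background 17.6%), cDC2 (3 of 7, 10.7%), B cells (2 of 8, 8.4%) and migratory dendritic cells (1 of 6, 10.3%). In spleen, T cells had 2 of 10 (1.95%), CD8 T cells 1 of 7 (0.757%) and B cells 1 of 9 (3.95%).

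No member passed in ascites T cells (0 of 7, background 0.639%), ascites CD8 T cells (0 of 4, 0.0817%), neutrophils (0 of 4, 2.71%), spleen CD4 T cells (0 of 6, 0.189%), or in blood T cells (0 of 6, 0.199%), CD8 T cells (0 of 4, 0.114%), B cells (0 of 9, 1.05%) and NK cells (0 of 4, 0.571%), by edgeR's quasi-likelihood test. At an unadjusted p under 0.05 the counts in these were 3, 2, 0, 0, 0, 0, 1 and 0. DESeq2 also called 0 members in each of these 8 comparisons. The members' median log2 change was 0.26 in macrophages, against 0.0088 over all genes, and -0.14 in cDC2, against 0.003. Such medians were not particular to classes with calls. With no member called, the members' median was -0.59 in neutrophils (all genes -0.0040), -0.25 in spleen CD4 T cells (0.0015) and 0.23 in blood B cells (0.0058). The members passed the low-count filter in unequal numbers of classes, from 2 of 16 for Bcl2l1 to 16 of 16 for Bcl2l11 and Mcl1.

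**Figure D2:**
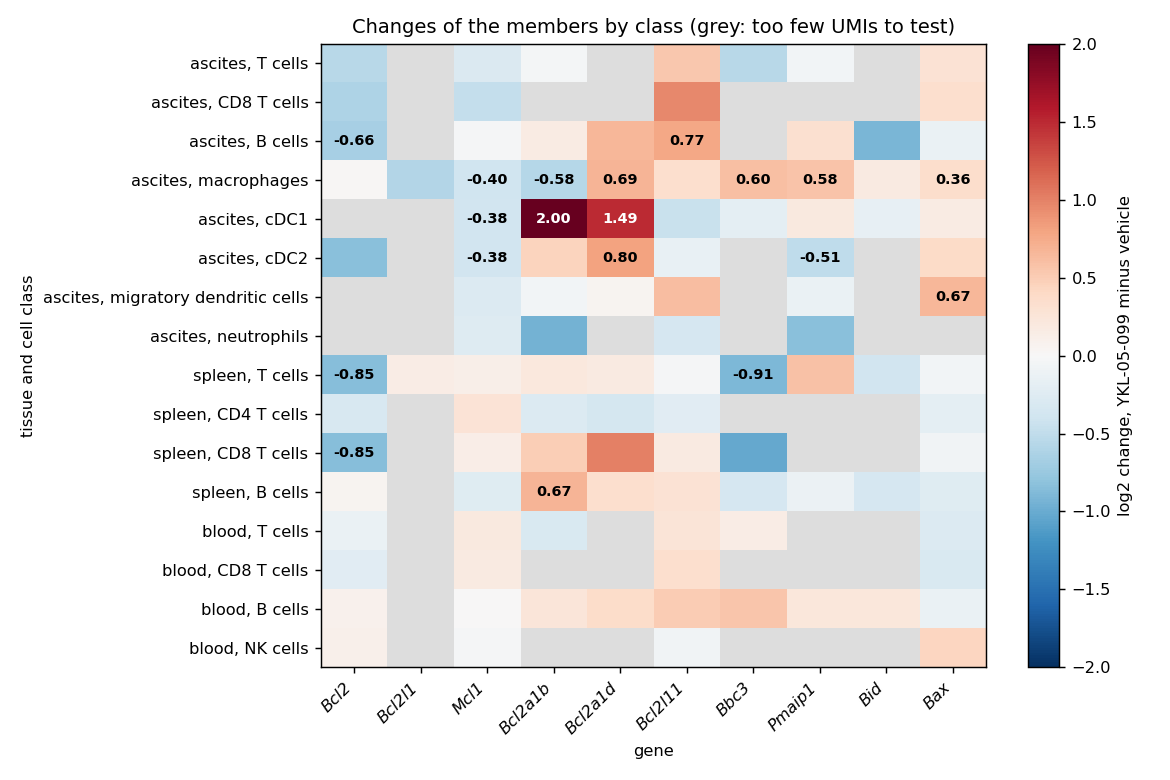
Log2 change of each of the 10 members (horizontal axis) in each of the 16 class and tissue comparisons (vertical axis), YKL-05-099 minus vehicle, as colour from blue (lower) to red (higher), with the value printed where the adjusted p was under 0.05 and grey where too few UMIs were counted to test. The called changes ran from -0.91 for Bbc3 in spleen T cells to 2.0 for Bcl2a1b in cDC1.

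In spleen T cells, Bcl2, the main guardian of resting lymphocytes, fell with YKL-05-099. Its levels were 477, 456 and 385 CPM in the 3 vehicle mice and 205, 275 and 276 CPM in the 3 treated mice (mice 2 to 4). Every treated mouse was below every vehicle mouse, and the change was -0.85 ± 0.11, adjusted p = 1.8e-05. Over all genes of this comparison, 16.1% had arms that did not overlap, as 4 of the 10 members did. The change kept its direction and its call when any mouse was left out.

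A fall of the same size was measured in CD8 T cells, a subset of these T cells from the same mice. In spleen CD8 T cells Bcl2 stood at 519, 523 and 411 CPM in the 3 vehicle mice and 235, 298 and 309 CPM in the 3 treated mice. The arms again did not overlap, as for 2 of the 7 members and 14.8% of all genes, and the change was -0.85 ± 0.13, adjusted p = 3.0e-05. In spleen CD4 T cells the levels were 307, 269.8 and 205 CPM in the 3 vehicle mice and 144, 273 and 206 CPM in the 3 treated mice, which overlapped, with a change of -0.31 ± 0.22, adjusted p = 0.907. The CD4 class had 127 vehicle and 134 treated cells, against 313 and 226 in the CD8 class, and the difference between the changes of these classes was not tested.

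The makeup of the T cell gate shifted too. CD8 cells made up 47.2% ± 2.18 of it in vehicle spleens and 36.0% ± 2.16 in treated spleens (SD, n = 3 each), while CD4 cells made up 19.1% ± 3.85 and 21.5% ± 2.26. Fewer Bcl2-rich cells in a class sum and less Bcl2 RNA per cell cannot be told apart from the sum itself, so the sum was also taken within Leiden clusters of the gate, chosen after seeing the data. In the cluster led by Dapl1, Cd8b1, Lef1 and Tcf7, genes of naive CD8 T cells, Bcl2 went from 450.1 ± 56.5 to 244 ± 35.3 CPM, -0.91 ± 0.13 (adjusted p = 9.2e-08). In the cluster led by Xcl1, Ccl5 and Cd160 it went from 581 ± 72.1 to 382 ± 96.8 CPM, -0.67 ± 0.15 (adjusted p = 0.0368), and in the cluster led by Cxcr6, Socs2 and Id2 from 534 ± 9.81 to 266 ± 21.04 CPM, -1.11 ± 0.15 (adjusted p = 1.7e-07). Bcl2 thus fell in 3 of the 4 clusters tested, by edgeR's quasi-likelihood test. In the fourth, led by Tnfrsf4, Ikzf2, Ctla4 and Foxp3, genes of regulatory T cells, it was already low, 111 ± 5.86 CPM in vehicle and 98.5 ± 23.02 in treated mice, with a change of -0.18 ± 0.26 (adjusted p = 0.939); differences between clusters were not tested. The B cell panel in the spleen T gate was 215 to 249 CPM in vehicle and 238 to 258 in treated mice, and no gene of it passed the test. The plasmacytoid dendritic cell panel was 123 to 143 CPM in vehicle and 179 to 229 in treated mice, with 1 of 3 tested genes higher. Panels of other classes can count RNA from other cells or the gated cells' own RNA, and these cannot be told apart here. The part of either panel in the Bcl2 result was not tested.

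In ascites T cells Bcl2 did not pass the test. The levels were 1046, 979.5, 766 and 410.3 CPM in the 4 vehicle mice and 546, 561, 523 and 567 CPM in the 4 treated mice, with vehicle mouse 4 below all treated mice and the other 3 vehicle mice above them. The change was -0.55 ± 0.23, adjusted p = 0.449, and without vehicle mouse 4 it was -0.78 (adjusted p = 0.00417). In ascites CD8 T cells the levels were 767, 1004 and 389 CPM in the 3 vehicle mice and 401, 472 and 472 CPM in the 3 treated mice, which overlapped, with a change of -0.62 ± 0.26, adjusted p = 0.474. CD8 cells made up 40.1% ± 11.1 of the ascites T gate in vehicle mice and 26.8% ± 7.55 in treated mice (SD, n = 4 each), and CD4 cells 22.7% ± 2.60 and 36.0% ± 10.1. The NK cell panel in this gate was 64.8 to 101 CPM in vehicle and 113 to 309.8 in treated mice, and the macrophage panel 517 to 629 CPM in vehicle and 425 to 687 in treated mice; their part in the Bcl2 values was not tested.

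In blood T cells Bcl2 levels were 265, 257 and 375 CPM in the 3 vehicle mice and 270.2, 301 and 285 CPM in the 3 treated mice. The arms overlapped, with vehicle mouse 3 above all other mice, and the change was -0.14 ± 0.12, adjusted p = 0.874. In blood CD8 T cells, where the levels were 272, 279.6 and 409.9 CPM in the 3 vehicle mice and 249, 284 and 315 CPM in the 3 treated mice, it was -0.23 ± 0.14, adjusted p = 0.798. The change in blood T cells minus that in spleen T cells, tested as an interaction with the mouse as a block and equal mouse numbers taken as the same animal, was 0.71 ± 0.17 (± SE, edgeR adjusted p = 0.0524), just short of the threshold, where 0.246% of all genes were called. Leaving out vehicle mouse 3 gave 1.01 (adjusted p = 7.9e-06), and leaving out treated mouse 2, 3 or 4 gave 0.62, 0.76 and 0.78 with adjusted p = 0.0328, 0.00172 and 0.00448. Without vehicle mouse 1 or 2 the difference stayed uncalled. In CD8 T cells the same difference was 0.64 ± 0.19 (± SE, edgeR adjusted p = 0.155), where 0.169% of all genes were called. Without vehicle mouse 3 it was 0.97 (adjusted p = 0.00243), and leaving out any other mouse brought no call. The ascites change minus the spleen change in T cells was 0.11 ± 0.18 (± SE, edgeR adjusted p = 0.995), with 0.113% of all genes called. It was taken over the 3 vehicle and 3 treated mice sampled in both tissues, without ascites vehicle mouse 4 and treated mouse 1.

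**Figure D3:**
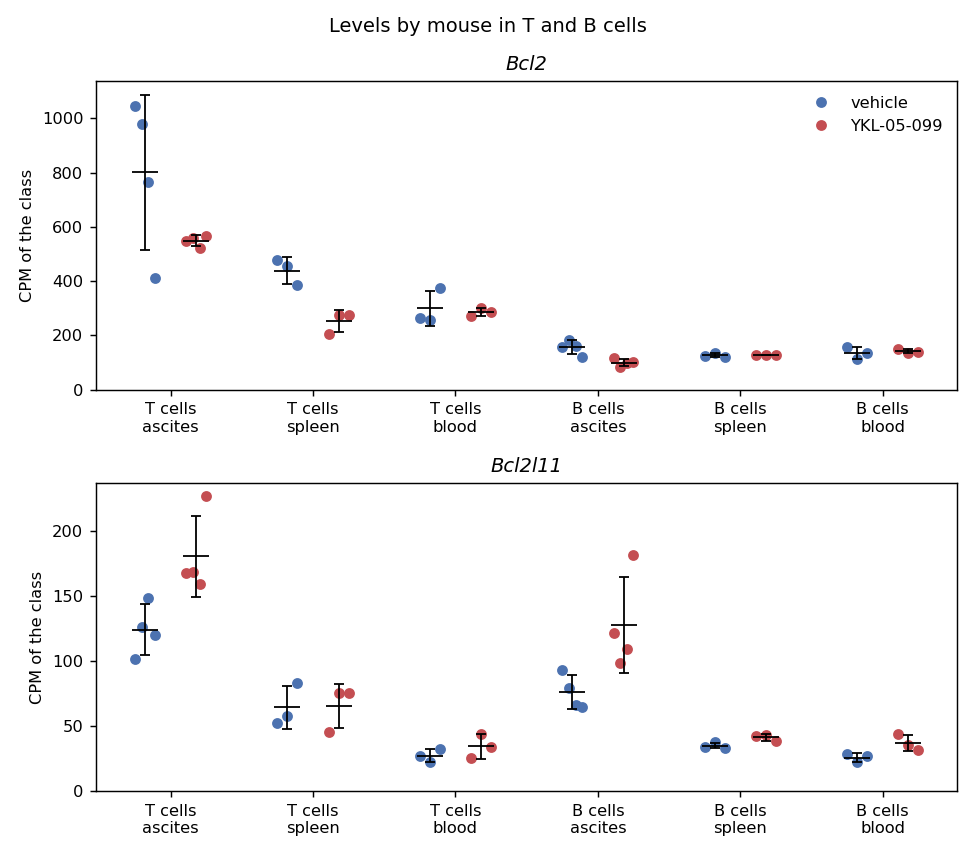
Bcl2 (upper panel) and Bcl2l11 (lower panel) in CPM (vertical axes) in T and B cells of the 3 tissues (horizontal axes), with a point per mouse, blue for vehicle and red for YKL-05-099, and black bars for the mean ± SD. For Bcl2 the arms did not overlap in spleen T cells and ascites B cells, and for Bcl2l11 they did not overlap in ascites T cells or in B cells of the 3 tissues.

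In B cells Bcl2 fell in ascites and not detectably elsewhere, and the tissue patterns of T and B cells were not compared by a test. Ascites B cells had 159, 183, 162 and 121 CPM in the 4 vehicle mice and 116, 84.1, 97.6 and 102 CPM in the 4 treated mice. The arms did not overlap, as for 2 of the 8 members and 12.5% of all genes, and the change was -0.66 ± 0.16, adjusted p = 0.00248. Spleen B cells had 125, 135 and 122 CPM in the 3 vehicle mice and 127, 126 and 129 CPM in the 3 treated mice; the change was 0.054 ± 0.083, adjusted p = 0.819. Blood B cells had 158, 115 and 134 CPM in the 3 vehicle mice and 149.7, 137 and 140.5 CPM in the 3 treated mice, with a change of 0.087 ± 0.10, adjusted p = 0.876. The ascites change minus the spleen change was -0.94 ± 0.19 (± SE, edgeR adjusted p = 0.00056), where 2.83% of all genes were called. It was taken over the 3 vehicle and 3 treated mice sampled in both tissues, without ascites vehicle mouse 4 and treated mouse 1. It was called whichever of the mice used was left out. The difference was not called with at most 5% mitochondrial UMIs, -0.47 (adjusted p = 0.865), or with Leiden cluster 0 of each library alone, -1.05 (adjusted p = 0.213). The libraries were clustered separately, so these clusters share a number and are not matched subsets. The ascites cluster was led by Ebf1, Ighd and Vpreb3. The cluster of the other library was led by Fcer2a, Pgap1 and Cd55 and held 91 vehicle and 113 treated spleen B cells. The blood change minus the spleen change was 0.041 ± 0.13 (± SE, edgeR adjusted p = 0.957), with 0.959% of all genes called.

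The ascites B cell gate was made up differently in the arms. A cluster led by the immunoglobulin genes Igkc, Ighm and Iglc1 and by Mzb1, with the B cell genes Ms4a1, Cd79a and Cd79b also among its 10 leading genes, held 24.4% of vehicle and 3.02% of treated B cells. These shares are of cells pooled over the mice of an arm. In the other cluster alone, led by Ebf1, Ighd and Vpreb3, Bcl2 still fell, -0.62 ± 0.16 (adjusted p = 0.00906). The macrophage panel in ascites B cells was 515 to 641 CPM in vehicle and 649 to 704 in treated mice, and the migratory dendritic cell panel 270.4 to 339.9 CPM in vehicle and 430.2 to 517 in treated mice, with its 1 tested gene higher. The plasma cell panel was 345 to 619.6 CPM in vehicle and 188 to 323 in treated mice, with neither of 2 tested genes called. The plasmacytoid dendritic cell panel was 318 to 432 CPM in vehicle and 277 to 293 in treated mice, with 1 of 2 tested genes lower. The non-classical monocyte panel was 197 to 287 CPM in vehicle and 138 to 204 in treated mice, with its 1 tested gene lower. Whether these panel shifts came from other cells or from the B cells themselves, and their part in the result, was not tested. With at most 5% mitochondrial UMIs, which left 254 vehicle and 82 treated cells of 792 and 364, the Bcl2 change was -0.19 (adjusted p = 0.897) and was no longer called.

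Of the ascites myeloid classes, macrophages and cDC2 were tested for Bcl2, and neither passed. Macrophages had 8.77, 17.3, 12.8 and 14.5 CPM in the 4 vehicle mice and 16.02, 14.6, 11.5 and 11.3 CPM in the 4 treated mice. The log2 change was 0.030 ± 0.21, adjusted p = 0.945. In cDC2 it stood at 33.4, 49.99, 48.6 and 29.6 CPM in the 4 vehicle mice and 16.3, 22.1, 24.8 and 35.3 CPM in the 4 treated mice, with treated mouse 4 above 2 vehicle mice, and the change, -0.83 ± 0.30, adjusted p = 0.0675, missed the threshold. Without treated mouse 4 or vehicle mouse 4 it was -0.99 (adjusted p = 0.0446) and -0.95 (adjusted p = 0.0342). Blood NK cells had 245, 119 and 261 CPM in the 3 vehicle mice and 161, 248 and 239.8 CPM in the 3 treated mice. The log2 change was 0.10 ± 0.20, adjusted p = 0.961.

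Bcl2l11 moved opposite to Bcl2 in ascites B cells, the class in which both were called. Its levels were 92.8, 79.6, 66.6 and 64.8 CPM in the 4 vehicle mice and 122, 98.9, 109 and 182 CPM in the 4 treated mice. Every treated mouse was above every vehicle mouse, and the change was 0.77 ± 0.17, adjusted p = 0.00132. Treated mouse 4 was the highest, and without it the change was 0.50 (adjusted p = 0.142), no longer called. With at most 5% mitochondrial UMIs it was 0.64 (adjusted p = 0.293), and in the Ebf1, Ighd and Vpreb3 cluster alone 0.59 ± 0.18 (adjusted p = 0.0293).

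Bcl2l11 was also higher in every treated mouse in spleen and blood B cells, without passing the test. Spleen B cells had 34.4, 37.6 and 33.6 CPM in the 3 vehicle mice and 42.8, 43.5 and 38.4 CPM in the 3 treated mice. The log2 change was 0.29 ± 0.14, adjusted p = 0.293. Blood B cells had 28.7, 22.2 and 26.9 CPM in the 3 vehicle mice and 44.1, 35.6 and 31.7 CPM in the 3 treated mice. The log2 change was 0.51 ± 0.19, adjusted p = 0.270. Arms did not overlap for 20.5% of all genes in spleen B cells and 14.2% in blood B cells. The ascites change minus the spleen change, over the 3 vehicle and 3 treated mice sampled in both tissues, was 0.40 ± 0.25 (± SE, edgeR adjusted p = 0.586).

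In T cells Bcl2l11 did not pass the test in any tissue. In ascites T cells it stood at 102, 126, 148 and 120.1 CPM in the 4 vehicle mice and 168, 169, 159 and 227 CPM in the 4 treated mice, which did not overlap, with treated mouse 4 the highest. The change was 0.54 ± 0.18, adjusted p = 0.217, and 5.73% of all genes had arms that did not overlap. Ascites CD8 T cells had 94.4, 122 and 95.9 CPM in the 3 vehicle mice and 173, 155 and 243 CPM in the 3 treated mice, again without overlap (as 14.7% of all genes), and a change of 0.96 ± 0.28, adjusted p = 0.188. With the mouse number as a block, a pairing that the values did not bear out, this was 0.97 (adjusted p = 0.0399). With cells pooled over the mice of an arm, the treated ascites T gate also held more cells of a cluster led by Gzma, Xcl1 and Klra8, 11.3% against 4.75%. NK cells had the highest Bcl2l11 of all vehicle classes, and the part of these cells in the T cell values was not tested.

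Spleen T cells had 52.2, 57.9 and 83.3 CPM in the 3 vehicle mice and 45.9, 75.2 and 75.5 CPM in the 3 treated mice, with arms that overlapped and a change of -0.017 ± 0.22, adjusted p = 0.994. In spleen CD8 and CD4 T cells the changes were 0.17 ± 0.23, adjusted p = 0.903 and -0.23 ± 0.37, adjusted p = 0.975. Spleen T cells thus lost Bcl2 with no detectable change of Bcl2l11. In blood T cells, where arms did not overlap for 1 of 6 members and 13.2% of all genes, Bcl2l11 overlapped at 26.96, 22.7 and 32.5 CPM in the 3 vehicle mice and 25.3, 44.003 and 34.3 CPM in the 3 treated mice, a change of 0.25 ± 0.33, adjusted p = 0.919. The differences between tissues in T cells were 0.60 ± 0.27 (± SE, edgeR adjusted p = 0.898) for ascites minus spleen and 0.25 ± 0.35 (± SE, edgeR adjusted p = 0.973) for blood minus spleen. Each was taken over the 3 vehicle and 3 treated mice sampled in both tissues.

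Among ascites myeloid cells, macrophages had 85.1, 96.8, 105 and 169.7 CPM in the 4 vehicle mice and 140.4, 109.7, 149.6 and 169.6 CPM in the 4 treated mice of Bcl2l11. Vehicle mouse 4 was as high as the highest treated mouse and the other vehicle mice were below all treated mice, and the change was 0.33 ± 0.25, adjusted p = 0.407, or 0.58 (adjusted p = 0.00992) without that mouse. In cDC1 the sign was the other one: 55.02, 44.3, 41.7 and 57.8 CPM in the 4 vehicle mice and 34.7, 34.2, 30.97 and 52.8 CPM in the 4 treated mice, a change of -0.44 ± 0.18, adjusted p = 0.0751, with treated mouse 4 apart from the other treated mice. Without treated mouse 4 it was -0.64 (adjusted p = 0.0142). Changes in cDC2, migratory dendritic cells and neutrophils were -0.14, 0.62 and -0.34, with adjusted p = 0.753, 0.224 and 0.805 by edgeR's quasi-likelihood test.

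Mcl1 fell in macrophages, cDC1 and cDC2 of ascites. In macrophages its levels were 898, 867, 776 and 873 CPM in the 4 vehicle mice and 669, 559.5, 676 and 646 CPM in the 4 treated mice. All treated mice were below all vehicle mice, as for 4 of 10 members and 24.4% of all genes, and the change was -0.40 ± 0.087, adjusted p = 0.00453. In cDC1 the levels were 674, 690.3, 658 and 719 CPM in the 4 vehicle mice and 524, 546, 556 and 531 CPM in the 4 treated mice, again without overlap (3 of 8 members, 18.9% of all genes), with a change of -0.38 ± 0.081, adjusted p = 0.00050. In cDC2, the dendritic cells that mainly present to CD4 T cells, they were 813, 604, 871 and 746 CPM in the 4 vehicle mice and 677, 463, 645 and 597 CPM in the 4 treated mice, which overlapped, with a change of -0.38 ± 0.12, adjusted p = 0.0378. That call was lost without vehicle mouse 1 or 3 or treated mouse 2 or 4, at adjusted p = 0.116, 0.175, 0.228 and 0.071, and by DESeq2, -0.37 (adjusted p = 0.104), and under 3 other settings. In the other 13 comparisons Mcl1 did not pass, with changes over all 16 from -0.47 to 0.28.

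The Bcl2a1 genes, whose product holds BIM and NOXA, rose in cDC1. Bcl2a1b went from 62.8, 84.01, 124 and 176 CPM in vehicle to 324, 536, 485 and 479 CPM in treated mice, and Bcl2a1d from 113, 120.3, 180.01 and 184 to 334, 442, 446 and 488 CPM. For both genes all treated mice lay above all vehicle mice. The changes were 2.0 ± 0.33, adjusted p = 0.00754, for Bcl2a1b and 1.49 ± 0.18, adjusted p = 0.00017, for Bcl2a1d, and with at least 50 cells per mouse the former was 1.94 (adjusted p = 0.0851). These cDC1 thus had less Mcl1 and more Bcl2a1 RNA together, while the macrophage panel in them was 178 to 219 CPM in vehicle and 151 to 233 in treated mice. In cDC2, Bcl2a1d stood at 92.5, 95.8, 126 and 179.8 CPM in the 4 vehicle mice and 161, 255, 259 and 187 CPM in the 4 treated mice, which overlapped at vehicle mouse 4, and rose by 0.80 ± 0.18, adjusted p = 0.00308.

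In macrophages the copies were called in opposite directions. Bcl2a1b had 373, 361, 359 and 387 CPM in the 4 vehicle mice and 226, 245, 277 and 230.5 CPM in the 4 treated mice. The log2 change was -0.58 ± 0.088, adjusted p = 0.00033. Bcl2a1d had 25.6, 28.4, 19.2 and 33.4 CPM in the 4 vehicle mice and 34.9, 44.6, 41.1 and 49.6 CPM in the 4 treated mice. The log2 change was 0.69 ± 0.16, adjusted p = 0.00835. The arms overlapped for neither gene. Since the copies differ at few bases of the stretch that is read, how the counting shared their reads bears on each value and was not tested. In spleen B cells Bcl2a1b had 98.004, 81.04 and 123 CPM in the 3 vehicle mice and 157, 153 and 147 CPM in the 3 treated mice, without overlap (5 of 9 members, 20.5% of all genes), and a change of 0.67 ± 0.10, adjusted p = 5.8e-05. It was not called with Leiden clusters as classes, 0.55 (adjusted p = 0.167), or with at most 5% mitochondrial UMIs, 0.95 (adjusted p = 0.363). The migratory dendritic cell panel in this gate was 68.1 to 104 CPM in vehicle and 129.5 to 134 in treated mice, with 1 of 2 tested genes higher. Whether this shift came from other cells or from the B cells themselves, and its part in the result, was not tested.

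**Figure D4:**
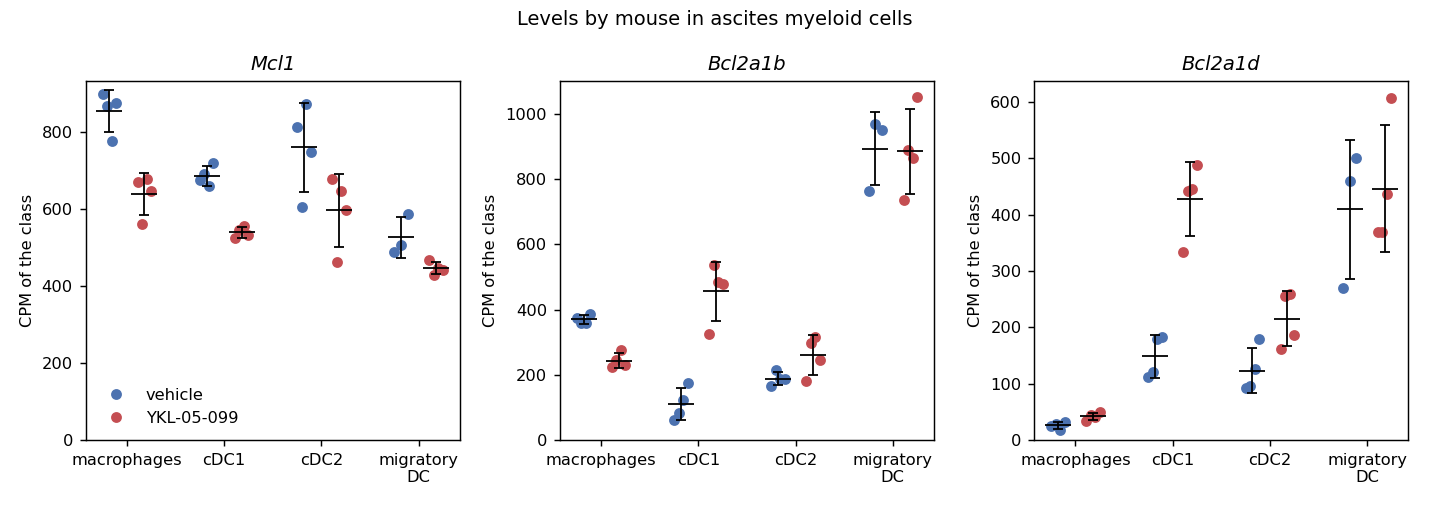
Mcl1, Bcl2a1b and Bcl2a1d in CPM (vertical axes) in 4 ascites myeloid classes (horizontal axes), with a point per mouse, blue for vehicle and red for YKL-05-099, and black bars for the mean ± SD. In cDC1 Mcl1 was 685 ± 25.9 CPM in vehicle and 539 ± 14.3 in treated mice while Bcl2a1b was 112 ± 49.7 and 456 ± 91.4.

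The myeloid classes were also composed differently by arm. Of treated macrophages, pooled over mice, 74.0% fell in a cluster led by Gpnmb, Vegfa and Lgals1. Vehicle macrophages, pooled likewise, were spread over clusters led by Ear2, Clec4b1 and Ccr2 (26.4%), Igf1, Gas6 and Cd163 (25.3%) and Marco, Fcna and Lyve1 (23.2%). Median UMIs per macrophage were 16880 ± 799 in vehicle and 13416 ± 1332 in treated mice (SD, n = 4 each). Macrophage results are therefore changes of the class, in which a change within cells and a shift between subsets cannot be told apart. In cDC1 the cDC2 panel was 13.6 to 34.95 CPM in vehicle and 43.4 to 101 in treated mice, with 1 of 2 tested genes higher, and the classical monocyte panel 194 to 231 CPM in vehicle and 43.7 to 54.9 in treated mice, with 1 of 2 lower. In cDC2 the classical monocyte panel was 397 to 532 CPM in vehicle and 119.5 to 216 in treated mice, with its 1 tested gene lower. The non-classical monocyte panel there was 293 to 367 CPM in vehicle and 145 to 255 in treated mice, with 2 of 2 lower. The migratory dendritic cell panel, whose own class had the highest Bcl2a1b and Bcl2a1d, was 30.6 to 103 CPM in vehicle and 102 to 147 in treated mice of cDC2. Its 1 tested gene was higher. In cDC1 it was 23.8 to 42.1 CPM in vehicle and 36.3 to 59.04 in treated mice, with 1 of 2 tested genes higher and the other lower. In macrophages the neutrophil panel, whose own class had the highest Mcl1, was 92.2 to 189 CPM in vehicle and 38.3 to 77.7 in treated mice, with 1 of 4 tested genes lower. The classical monocyte panel was 739 to 1636 CPM in vehicle and 659 to 843 in treated mice, with 1 of 5 lower, and the plasmacytoid dendritic cell panel 259 to 348 CPM in vehicle and 374 to 480.1 in treated mice, with 1 of 2 higher. Whether these panel shifts came from other cells or from the gated cells themselves, and their part in the macrophage and dendritic cell results, was not tested.

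Of the death-promoting members, Bbc3, Pmaip1 and Bax rose in macrophages, and Bcl2l11 and Bid did not pass. Bbc3, which encodes the p53 target PUMA, had 17.1, 17.7, 15.4 and 13.01 CPM in the 4 vehicle mice and 30.2, 16.7, 22.3 and 28.7 CPM in the 4 treated mice, with treated mouse 2 within the vehicle range. The change was 0.60 ± 0.19, adjusted p = 0.0355. That call was lost without any single mouse other than treated mouse 2, at adjusted p from 0.0512 to 0.126, and also with the mouse number as a block, 0.57 (adjusted p = 0.0549), and under 3 other settings. Pmaip1 had 43.6, 48.6, 41.4 and 36.3 CPM in the 4 vehicle mice and 78.2, 51.8, 68.8 and 49.6 CPM in the 4 treated mice, without overlap, and a change of 0.58 ± 0.15, adjusted p = 0.0133. Without treated mouse 3 it was 0.51 (adjusted p = 0.0534). Bax had 134, 153, 142 and 128 CPM in the 4 vehicle mice and 169, 189.6, 153 and 197 CPM in the 4 treated mice, with treated mouse 3 within the vehicle range. The change was 0.36 ± 0.092, adjusted p = 0.0119, and with hashtags called by HTODemux it was 0.30 (adjusted p = 0.110).

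In other classes single members passed. Pmaip1 fell in cDC2, where it had 232, 183, 224 and 369.5 CPM in the 4 vehicle mice and 184, 192, 180.4 and 148 CPM in the 4 treated mice, with overlap. The change was -0.51 ± 0.16, adjusted p = 0.0386, or by DESeq2 -0.51 (adjusted p = 0.0946). Vehicle mouse 4 was the highest, and without it the change was -0.30 (adjusted p = 0.225); leaving out vehicle mouse 1 or any treated mouse also ended the call, at adjusted p from 0.0504 to 0.111. Bax rose in migratory dendritic cells, from 75.2, 100.03 and 99.9 CPM in 3 vehicle mice to 129.7, 178, 166 and 119 in 4 treated mice, without overlap (3 of 6 members, 20.4% of all genes), a change of 0.67 ± 0.21, adjusted p = 0.0346. The call was lost without vehicle mouse 1, 2 or 3 or treated mouse 2 or 3, at adjusted p from 0.079 to 0.137, and DESeq2 gave an adjusted p of 0.122.

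Bbc3 fell in spleen T cells together with Bcl2. It had 38.1, 28.6 and 41.7 CPM in the 3 vehicle mice and 24.1, 19.7 and 17.1 CPM in the 3 treated mice, without overlap, and a change of -0.91 ± 0.20, adjusted p = 0.00404. Without vehicle mouse 3 or treated mouse 4 it was -0.79 (adjusted p = 0.0766) and -0.79 (adjusted p = 0.0832), and with the mouse number as a block -0.74 (adjusted p = 0.226). The Wald test of DESeq2 called 1 member in spleen T cells, where edgeR called 2. Bid was tested in 6 comparisons, with changes from -0.92 to 0.23, and Bcl2l1 in 2, with changes from -0.58 to 0.14, and neither passed the threshold by edgeR.

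Around the members, 65 other genes of the pathway were read from 5 lists, by how many tests passed in edgeR over the 16 comparisons, where a gene counts once in each comparison that tested it. The 14 other BCL2 family genes gave 57 tests, of which 1 passed as higher and 2 as lower. The 13 apoptosome and caspase genes gave 97 tests, with 4 higher and 2 lower. The 6 inhibitors of caspases gave 79 tests, with 1 higher and 3 lower. The 11 death receptor genes gave 74 tests, with 5 higher and 1 lower, and the 21 genes upstream of the members gave 238 tests, with 20 higher and 9 lower. All these calls lay in ascites myeloid classes and in B cells; of all genes, between 10.3% and 21.6% were called in those myeloid classes and between 1.05% and 8.4% in B cells. No test of these lists passed in a T cell comparison, where between 0.0817% and 1.95% of all genes were called. The list counts pool comparisons with such unlike shares, and no pooled share of all genes was set beside them. They are therefore not read as more or fewer calls than among all genes. For the genes named from these lists, all past the adjusted threshold by edgeR, the log2 change ± SE stands first and is followed by the vehicle and treated means ± SD over mice.

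In ascites macrophages the apoptosome genes Apaf1 (0.34 ± 0.10, 46.2 ± 3.31 to 57.9 ± 4.52 CPM) and Cycs, cytochrome c (0.62 ± 0.17, 98.8 ± 10.9 to 149 ± 46.6 CPM), rose. They were 2 of 13 tested, where 21.6% of all genes were called. The death receptor gene Fas rose (0.76 ± 0.16, 20.02 ± 3.18 to 32.9 ± 7.01 CPM), as did the TNF receptor Tnfrsf1b (0.30 ± 0.10, 78.6 ± 4.25 to 96.1 ± 9.804 CPM). The mitophagy genes Bnip3 (-1.33 ± 0.36, 67.1 ± 24.4 to 27.8 ± 8.07 CPM) and Bnip3l (-0.55 ± 0.17, 141 ± 5.705 to 95.3 ± 22.2 CPM) fell. Of 18 upstream genes 7 rose and 3 fell, against the same background of 21.6%, among them Ddit3, which encodes the stress factor CHOP (1.35 ± 0.16, 24.7 ± 6.25 to 62.8 ± 6.45 CPM), Il7r (2.37 ± 0.19, 5.27 ± 1.396 to 26.4 ± 2.31 CPM), Myc (-2.02 ± 0.25, 36.3 ± 11.4 to 8.45 ± 2.35 CPM) and the interleukin-4 receptor chain Il4ra (-0.72 ± 0.10, 139 ± 7.39 to 83.2 ± 13.1 CPM).

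In dendritic cells other genes of the lists passed as well. Il7r and Ddit3 rose in cDC2 (2.81 ± 0.31, 10.98 ± 7.81 to 76.8 ± 9.25 CPM, and 1.55 ± 0.33, 13.4 ± 2.52 to 41.2 ± 13.3 CPM). Tnfrsf1b rose in cDC1 (1.10 ± 0.20, 16.8 ± 0.918 to 36.9 ± 1.82 CPM) and cDC2 (0.85 ± 0.24, 31.9 ± 7.28 to 59.5 ± 8.03 CPM), and the executioner caspase gene Casp6 fell in cDC1 (-0.91 ± 0.14, 95.7 ± 12.3 to 52.4 ± 6.396 CPM) and cDC2 (-0.71 ± 0.23, 69.9 ± 1.16 to 44.3 ± 13.7 CPM). In migratory dendritic cells Cflar, which encodes the caspase-8 inhibitor FLIP (-0.76 ± 0.16, 195 ± 12.3 to 118 ± 7.49 CPM), and Birc2, which encodes cIAP1 (-0.67 ± 0.15, 568 ± 94.6 to 360.4 ± 33.8 CPM), fell, 2 of 5 inhibitors tested, where 10.3% of all genes were called. Jun, an AP-1 factor, rose in the 3 dendritic classes (0.60 ± 0.15, 612 ± 50.6 to 953 ± 236 CPM in cDC1, 0.71 ± 0.11, 1054 ± 202 to 1761 ± 153 CPM in cDC2, 1.04 ± 0.19, 569 ± 169 to 1187 ± 229.8 CPM in migratory cells) and fell in spleen B cells (-0.61 ± 0.068, 1213 ± 38.05 to 765 ± 88.3 CPM). Further calls are given as log2 change ± SE alone. In cDC1, Bcl2l14 (0.77 ± 0.15), Cycs (0.36 ± 0.097), Birc5 (0.83 ± 0.25) and Il2rg (0.997 ± 0.32) were higher. Ripk1 (-0.64 ± 0.16) and Il4ra (-0.89 ± 0.15) were lower there. In migratory cells Il7r (0.72 ± 0.18) was higher, and Stat5a (-0.96 ± 0.22) and Il2ra (-0.85 ± 0.20) were lower.

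In B cells the NF-κB gene Rel rose in all 3 tissues, 0.52 ± 0.093, 455 ± 19.2 to 687 ± 48.97 CPM in ascites, 0.54 ± 0.085, 126 ± 11.4 to 175 ± 8.64 CPM in spleen and 0.33 ± 0.086, 176 ± 9.22 to 219 ± 9.42 CPM in blood. Ascites B cells also had more Trp53, the p53 gene (0.97 ± 0.21, 35.95 ± 5.602 to 78.3 ± 22.3 CPM), Casp2 (1.02 ± 0.24, 26.3 ± 4.46 to 53.2 ± 12.04 CPM) and Traf2 (1.14 ± 0.29, 14.7 ± 4.01 to 37.5 ± 5.26 CPM), and less Birc2 (-0.46 ± 0.15, 144 ± 13.02 to 109 ± 10.4 CPM). Il7r was higher in them too (1.02 ± 0.32, 13.9 ± 6.38 to 30.8 ± 13.02 CPM). Spleen B cells had less Atf4 (-0.45 ± 0.089, 128 ± 4.58 to 90.5 ± 6.58 CPM).  The lists were read with earlier results of these data known, and no list was tested as a whole.

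Over 14 class and tissue means of vehicle mice, which share libraries and mice, the genes whose log2 level ran most like Bcl2 were Synj2bp, L3mbtl3 and Fyco1, with Pearson r = 0.958, 0.949 and 0.919 among 10586 genes compared. Those most like Bcl2l11 were Gtf2h5, Vegfa and Ksr1 (r = 0.902, 0.894 and 0.867), and those most like Mcl1 were Acsl1, Trib1 and Sh2b2 (r = 0.950, 0.943 and 0.933). These correlations are descriptions over classes and carry no test.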

How the data were processed

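Single-cell RNA was measured with 10x Genomics 3′ chemistry, per the labels' protocols, in 2 pooled libraries of sorted cells. The deposited matrices hold whole-number counts of UMIs for every gene and hashtag in each barcode, made with Cell Ranger 6.1.1 on mm10 per the submitters' processing notes, and the deposited hashtag notes give the tissue, arm and number of each mouse. All further values were computed from these counts.

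Filters on genes (200 or more), UMIs (500 or more) and mitochondrial share (10% or less) left 11112 of 13688 ascites barcodes and 11513 of 14792 barcodes from spleen and blood; the libraries held 134034611 and 92064806 UMIs. A cell belonged to a mouse where its top hashtag held at least 80% of at least 20 hashtag UMIs, a rule used in place of HTODemux; 207 and 263 kept barcodes had too few hashtag UMIs and 4486 and 4509 had mixed hashtags. Barcodes with mixed hashtags were left out, and no doublet caller was run. Cells that passed panels of more than 1 lineage were left out too, except for set pairs of lineages. The T cell class took cells that also passed the NK cell panel, and plasma cells took those of the B cell panel. Macrophages took cells that also passed cDC2 or monocyte panels, and cDC2 took those of the monocyte panels. The dendritic lineage other than cDC2 took cells that also passed cDC2 or monocyte panels. Classes were gated on fixed marker panels, with UMI limits set from the panels' histograms without regard to treatment. Counts were summed per mouse and class, and a mouse entered with at least 20 cells.

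Genes were tested with edgeR 4.0.16 in R 4.3.3 (robust quasi-likelihood F test, TMM, filterByExpr, two-sided) with Benjamini-Hochberg adjustment over all genes of a comparison and a threshold of 0.05. Differences between tissues were interaction terms with the mouse as a block, on the assumption that a mouse number and arm in both hashtag notes is 1 animal. Only mice that entered in both tissues were used for them. Same-numbered mice of different arms are different animals, and the comparison of arms had no block. The comparison of arms was tested on simulated data. Python 3.11.15, scanpy 1.11.5 and leidenalg 0.10.2 (resolution 1) made the Leiden clusters, each named by the gate that held at least 50% of its cells.

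The text names the 10 members, up to 4 called genes per pathway list and class by smallest p, and the 3 genes most like Bcl2, Bcl2l11 and Mcl1 by Pearson r of log2(CPM + 1) over class means of vehicle mice. Clusters and the mice left out that are named beside results were chosen after their values were seen. The members, the lists and the hashtag rule were chosen with earlier results of these data known.

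Alternatives were HTODemux of Seurat 5.3.0 (quantile 0.99), a top hashtag of at least 90%, Leiden clusters as classes, at most 5% mitochondrial UMIs, a minimum of 10 or of 50 cells per mouse, a replicate block, leaving out each mouse, the Wald test of DESeq2 1.42.0, its size factors in edgeR, and all genes with a UMI in place of filterByExpr. Cells without a Rora UMI and single clusters of T and B cells were added after seeing the data, for single genes only. Promoter sequences are from RefSeq (GRCm38.p6) and gene positions from an annotation of GRCm38.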

Additional observations from a re-analysis of the deposited data

Results flagged for a closer look

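Among 90 groups of 4 or more mice, 5 held a mouse far from the others of its group, where chance alone gives about 1 in 20 groups. In ascites T cells treated mouse 4 had 569 CPM of Mcl1, against 482 in the nearest treated mouse, and 227 CPM of Bcl2l11, against 169 in the nearest. In the same class vehicle mouse 3 had 105 CPM of Bcl2a1b, against 51.2 in the nearest vehicle mouse. In cDC1 treated mouse 4 had 52.8 CPM of Bcl2l11, against 34.7 in the nearest treated mouse, and in neutrophils vehicle mouse 4 had 323 CPM of Bcl2l11, against 186 in the nearest vehicle mouse. Treated mouse 4 thus accounted for 3 of the 5 values.

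The change of Bcl2 in B cells differed between tissues by a test of the difference itself: the ascites change minus the spleen change was -0.94 ± 0.19 (SE, edgeR adjusted p = 0.00056). That test held the 3 vehicle and 3 treated mice sampled in both tissues. Over all ascites mice, Bcl2 was lower in 4 of 4 treated than in every vehicle mouse, and the arms overlapped in spleen. The difference was not called with at most 5% mitochondrial UMIs (-0.47, adjusted p = 0.865) or with Leiden cluster 0 of each library alone (-1.05, adjusted p = 0.213). Those clusters share only a number and are not matched subsets.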

How the results depend on the processing

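The called changes of the members kept their direction under every alternative, each mouse left out included. Values of Bcl2 and Bcl2l11, and of Rel in blood B cells, that turned in sign, or crossed the threshold of 0.05 in T cells or between tissues, were as follows, with the cause not tested unless fewer cells or genes are the alternative itself. With Leiden clusters as classes the log2 value was -0.20 for Bcl2 in ascites macrophages, 0.20 for Bcl2l11 in ascites cDC2 and -0.039 for Bcl2 in blood NK cells. With Leiden cluster 7 alone the log2 value was -0.18 for Bcl2 in spleen T cells. With T cells without a Rora UMI the log2 value was 0.075 for Bcl2l11 in spleen T cells, 0.73 for Bcl2 in T cells (blood minus spleen) and -0.025 for Bcl2 in T cells (ascites minus spleen). With Leiden cluster 5 alone the log2 value was 0.44 for Bcl2l11 in spleen T cells. With at most 5% mitochondrial UMIs the log2 value was -0.15 for Bcl2 in spleen B cells, -0.19 for Bcl2l11 in T cells (blood minus spleen), -0.79 for Bcl2l11 in B cells (blood minus spleen), -0.47 for Bcl2 in B cells (ascites minus spleen) and -0.40 for Bcl2l11 in B cells (ascites minus spleen). With Leiden cluster 2 alone the log2 value was -0.064 for Bcl2 in spleen B cells. With Leiden cluster 6 alone the log2 value was -0.035 for Bcl2 in spleen B cells. With Leiden cluster 0 alone the log2 value was -0.026 for Bcl2 in blood B cells, -0.28 for Bcl2 in B cells (blood minus spleen) and -1.05 for Bcl2 in B cells (ascites minus spleen). The last value sets unmatched clusters of separately clustered libraries side by side. With Leiden cluster 9 alone the log2 value was -0.11 for Bcl2 in blood B cells and -0.011 for Rel in blood B cells. With hashtags by HTODemux the log2 value was 0.034 for Bcl2l11 in blood NK cells, 0.81 for Bcl2 in T cells (blood minus spleen) and 0.81 for Bcl2 in CD8 T cells (blood minus spleen). With no low-count filter the log2 value was 0.67 for Bcl2 in T cells (blood minus spleen). With DESeq2 size factors the log2 value was 0.73 for Bcl2 in T cells (blood minus spleen). With at least 50 cells per mouse the log2 value was 0.76 for Bcl2 in T cells (blood minus spleen). With a top hashtag of at least 90% the log2 value was 0.73 for Bcl2 in T cells (blood minus spleen). With Leiden cluster 3 alone the log2 value was 0.84 for Bcl2 in T cells (blood minus spleen). Other calls of single members were gained or lost under these settings, with adjusted p by the setting's own test. Bcl2 in ascites B cells lost its call at -0.19 (adjusted p = 0.897) with at most 5% mitochondrial UMIs. Bcl2l11 in ascites B cells lost its call at 0.64 (adjusted p = 0.293) with at most 5% mitochondrial UMIs. Bbc3 in ascites macrophages lost its call at 0.57 (adjusted p = 0.0549) with a replicate block, 0.67 (adjusted p = 0.0747) with hashtags by HTODemux, 0.46 (adjusted p = 0.0644) with Leiden clusters as classes and 0.78 (adjusted p = 0.0660) with at most 5% mitochondrial UMIs. Bax in ascites macrophages lost its call at 0.30 (adjusted p = 0.110) with hashtags by HTODemux. Bcl2a1b in ascites cDC1 lost its call at 1.94 (adjusted p = 0.0851) with at least 50 cells per mouse. Mcl1 in ascites cDC2 lost its call at -0.37 (adjusted p = 0.104) with the DESeq2 Wald test, -0.39 (adjusted p = 0.139) with hashtags by HTODemux, -0.40 (adjusted p = 0.0549) with a top hashtag of at least 90% and -0.36 (adjusted p = 0.109) with at most 5% mitochondrial UMIs. Pmaip1 in ascites cDC2 lost its call at -0.51 (adjusted p = 0.0946) with the DESeq2 Wald test, -0.47 (adjusted p = 0.0513) with a replicate block, -0.54 (adjusted p = 0.139) with hashtags by HTODemux, -0.46 (adjusted p = 0.110) with a top hashtag of at least 90% and -0.45 (adjusted p = 0.0989) with at most 5% mitochondrial UMIs. Bax in ascites migratory dendritic cells lost its call at 0.66 (adjusted p = 0.122) with the DESeq2 Wald test and 0.56 (adjusted p = 0.0616) with at least 10 cells per mouse. Bbc3 in spleen T cells lost its call at -0.74 (adjusted p = 0.226) with a replicate block and -0.82 (adjusted p = 0.444) with Leiden cluster 3 alone. Bcl2a1b in spleen B cells lost its call at 0.55 (adjusted p = 0.167) with Leiden clusters as classes, 0.95 (adjusted p = 0.363) with at most 5% mitochondrial UMIs, 0.47 (adjusted p = 0.163) with Leiden cluster 1 alone and 0.50 (adjusted p = 0.238) with Leiden cluster 2 alone. Bcl2l11 in ascites macrophages gained its call at 0.37 (adjusted p = 0.0429) with a replicate block. Bcl2l11 in ascites cDC1 gained its call at -0.59 (adjusted p = 0.0458) with at least 50 cells per mouse and -0.47 (adjusted p = 0.0420) with Leiden clusters as classes. Bcl2 in ascites cDC2 gained its call at -0.99 (adjusted p = 0.0461) with a top hashtag of at least 90% and -0.82 (adjusted p = 0.0224) with Leiden clusters as classes. Numbers of genes past the threshold, 34 in ascites T cells, 2 in ascites CD8 T cells, 503 in ascites B cells, 2173 in ascites macrophages, 1232 in ascites cDC1, 517 in ascites cDC2, 444 in ascites migratory dendritic cells, 35 in ascites neutrophils, 7 in spleen CD4 T cells, 43 in spleen CD8 T cells, 344 in spleen B cells, 9 in blood T cells, 4 in blood CD8 T cells, 79 in blood B cells, 15 in blood NK cells and 160 in spleen T cells as reported, moved by over 1.5 times as follows. With no low-count filter they were 111 in ascites T cells, 22 in ascites CD8 T cells, 25 in spleen CD4 T cells, 76 in spleen CD8 T cells and 21 in blood T cells, and the members called were 2 in spleen CD8 T cells. With at most 5% mitochondrial UMIs they were 6 in ascites T cells, 76 in ascites B cells, 2 in spleen CD4 T cells, 8 in spleen CD8 T cells, 59 in spleen B cells, 4 in blood T cells and 4 in blood B cells, and the members called were 0 in ascites B cells, 1 in ascites cDC2 and 0 in spleen B cells. With the DESeq2 Wald test they were 1 in ascites CD8 T cells, 320 in ascites B cells, 799 in ascites cDC1, 272 in ascites migratory dendritic cells, 20 in ascites neutrophils, 15 in spleen CD8 T cells, 201 in spleen B cells, 36 in blood T cells, 0 in blood CD8 T cells, 47 in blood B cells and 3 in blood NK cells, and the members called were 1 in ascites cDC2, 0 in ascites migratory dendritic cells and 1 in spleen T cells. With at least 10 cells per mouse they were 6 in ascites CD8 T cells, and the members called were 0 in ascites migratory dendritic cells. With Leiden clusters as classes they were 7 in ascites CD8 T cells, 54 in ascites neutrophils and 5 in blood T cells. With hashtags by HTODemux they were 1118 in ascites macrophages, 171 in ascites cDC2, 83 in spleen CD8 T cells and 0 in blood CD8 T cells, and the members called were 1 in ascites cDC2. With a top hashtag of at least 90% they were 2 in blood CD8 T cells. With the mouse number as a replicate block, a pairing of mice that only the numbers give, the genes called were 130 in ascites T cells, 46 in ascites CD8 T cells, 146 in ascites neutrophils, 22 in spleen CD4 T cells, 7 in spleen CD8 T cells, 199 in spleen B cells, 58 in blood T cells, 28 in blood CD8 T cells and 7 in blood NK cells, the members called were 1 in ascites CD8 T cells and 1 in spleen T cells, and the log2 value was 0.97 for Bcl2l11 in ascites CD8 T cells and -0.19 for Bcl2l11 in spleen CD8 T cells. The deviations of same-numbered mice correlated at -0.16 to 0.32, and in 0 of the 16 comparisons did every pair exceed 0.1. Leaving out each mouse in turn gave log2 values of -0.78 to -0.39 for Bcl2 in ascites T cells, -0.10 to 0.17 for Bcl2 in ascites macrophages, -0.15 to 0.21 for Bcl2l11 in spleen T cells, -0.89 to 0.21 for Bcl2l11 in spleen CD4 T cells, -0.043 to 0.54 for Bcl2l11 in spleen CD8 T cells, -0.24 to 0.087 for Bcl2 in blood T cells, -0.35 to 0.031 for Bcl2 in blood CD8 T cells, -0.00013 to 0.51 for Bcl2l11 in blood CD8 T cells, -0.0080 to 0.21 for Bcl2 in blood B cells, -0.16 to 0.30 for Bcl2 in blood NK cells, -0.25 to 0.12 for Bcl2l11 in blood NK cells, 0.56 to 1.01 for Bcl2 in T cells (blood minus spleen), 0.46 to 0.97 for Bcl2 in CD8 T cells (blood minus spleen), -0.013 to 0.31 for Bcl2l11 in CD8 T cells (blood minus spleen), -0.12 to 0.19 for Bcl2 in B cells (blood minus spleen) and -0.052 to 0.59 for Bcl2l11 in B cells (ascites minus spleen). The numbers of genes called then ran over 11 to 218 in ascites T cells, 0 to 86 in ascites CD8 T cells, 259 to 441 in ascites migratory dendritic cells, 0 to 91 in ascites neutrophils, 101 to 209 in spleen T cells, 5 to 44 in spleen CD4 T cells, 8 to 129 in spleen CD8 T cells, 209 to 298 in spleen B cells, 3 to 35 in blood T cells, 1 to 6 in blood CD8 T cells, 42 to 75 in blood B cells and 7 to 14 in blood NK cells. The numbers of members called ran over 0 to 1 in ascites T cells, 1 to 2 in ascites B cells, 1 to 4 in ascites cDC2, 0 to 1 in ascites migratory dendritic cells, 1 to 2 in spleen T cells, 1 to 2 in spleen CD8 T cells and 1 to 2 in spleen B cells. Of 65 uncalled changes of the other members, 27 changed sign and 6 passed the threshold under at least 1 alternative; of 39 differences between tissues, 17 and 0 did. Vehicle levels and likeness between genes were not run under the alternatives. Alternatives that left an arm under 2 mice gave no value. Classes with few UMIs, such as ascites CD8 T cells and neutrophils, limit how small a change could be called.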
